A study of Homo sapiens with 72 samples.

Results

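The longest protein-coding genes of the human autosomes were followed across 6 compounds in U2OS cells, a human osteosarcoma line. A gene was taken as long when its record in the GENCODE release 44 annotation of the GRCh38 genome spans at least 500 kb from first to last base, introns included. Genes whose symbol starts with COL were to be left out, and 0 of the genes listed in the files met that exclusion. This gave 303 long genes of 18659 protein-coding autosomal genes and of 60371 genes listed in each file, and the 7666 protein-coding autosomal genes under 20 kb served as the background for gene length. The length rule itself used no expression value, although it was set with earlier results of these data known. Just inside the limit lay ANO5 (500908 bp) and SPOCK3 (501412 bp), and just outside it lay DIAPH3 (498345 bp) and ITPR2 (497842 bp). The median span was 715.5 kb, against a median mRNA length of 3069 bases, so almost all of a typical record is intron. The 5 longest records were those of RBFOX1, CNTNAP2, PTPRD, DLG2 and CSMD1, with RBFOX1 at 2473538 bp. A record joins all transcripts of a gene, and the transcript that the annotation marks as canonical itself spanned at least 500 kb in 236 of the 303 genes, 100 to 500 kb in 62 and under 100 kb in 5 (ANO5, EGLN3, GSE1, RASGEF1B and SEMA6D).

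The series holds poly(A)-selected, strand-marking RNA-seq libraries from 72 wells, each treated for 12 h. Triptolide (a plant diterpene that binds the XPB subunit of transcription factor TFIIH and blocks RNA polymerase II), homoharringtonine (a plant alkaloid that blocks translation elongation on the ribosome), Nilotinib (an inhibitor of the ABL tyrosine kinase), Pyrazolanthrone (an inhibitor of the JNK kinases), MK-2206 (an inhibitor of the AKT kinases) and Miglitol (an inhibitor of intestinal alpha-glucosidases) were each given at 100, 1000 and 10000 nM, in 3 wells per dose. The controls were 18 wells with the solvent DMSO, and each comparison with DMSO used the same 18 wells. The wells of a group were treated as separate wells of multi-well plates, and no source says that they came from separate platings or days, so the p-values measure the spread between wells. Total counts ran from 70767 to 68296309 per well, and 3 shallow wells had under 10000000, namely triptolide 100 nM replicate 2 (70767), DMSO replicate 10 (460014) and triptolide 1000 nM replicate 1 (9628355). They stayed in the tests, while the DMSO ranges given below are those of the 17 deep wells. The label of the line was checked against markers. VIM (1842 TPM), SPARC (2144 TPM) and COL1A1 (456 TPM), mesenchymal and bone matrix genes, were high in DMSO wells, while the osteoblast factor SP7 (0.012 TPM) and COL1A2 (0.089 TPM) were near 0.

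A gene of this size takes RNA polymerase II many hours to read from end to end, and its first exon is often separated from the rest by introns longer than most whole genes. Long human genes are rich in products of neurons, such as adhesion molecules, axon guidance receptors, ion channels and synaptic scaffolds, and several of them lie in common fragile sites, where replication is easily left unfinished. Their output is known to depend on elongation factors, on topoisomerase I and on the protection of intronic poly(A) sites, and a new mature mRNA appears late after any change at the promoter.

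In DMSO wells the long genes were weakly expressed. Of the 303, 174 (57.4%) reached a mean of 1 TPM (transcript abundance scaled to a constant library total, a measure per length of mRNA), close to the 53.8% of genes under 20 kb. Only 59 (19.5%) reached 10 TPM, against 37.7% of genes under 20 kb, and no other class of span had so low a share. Their median level was 1.51 TPM, against 1.87 TPM under 20 kb and 10.1 TPM from 20 to 50 kb. Together they held a median of 0.470% of all counts per DMSO well (range 0.410% to 0.546%). Their annotated transcripts, averaged per gene, were also poorer in G and C, with a median of 45.4% GC against 54.9% in genes under 20 kb.

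The highest levels included genes of cell polarity, adhesion and the cytoskeleton. PARD3, a polarity scaffold, was at 78.3 ± 11.3 TPM (SD, n = 18 wells throughout this paragraph). FAF1, a ubiquitin-binding cofactor of the p97 ATPase, was at 58.8 ± 18.6 TPM. NTM, a GPI-anchored neural adhesion molecule, was at 53.9 ± 15.1 TPM, and its value overlapped that of FAF1. GPHN, the scaffold of inhibitory synapses and an enzyme of molybdenum cofactor synthesis, was at 52.5 ± 8.67 TPM, and ADK, adenosine kinase, at 50.8 ± 26.1 TPM. They were followed by the adhesion receptor TENM2 (43.4 ± 11.6), the transcription activator CAMTA1 (42.4 ± 10.1), the CRE-binding factor CREB5 (41.1 ± 15.9), the proteoglycan SPOCK1 (39.1 ± 11.1), the nuclear envelope spectrin SYNE1 (38.4 ± 8.18), the cadherin CDH13 (38.3 ± 4.16) and the ARF GTPase regulator AGAP1 (38 ± 11.1). From NTM to AGAP1 each neighbour in this order lay within 1 SD of the next. Below them stood ROBO1, a receptor for SLIT guidance cues (31.5 ± 4.46), the receptor phosphatase PTPRG (31.4 ± 3.13), the kinase PRKCA (29.9 ± 3.39), the focal adhesion protein LPP (26.8 ± 4.31) and the heparan sulfate carrier GPC6 (26.0 ± 15.9). Of the 5 longest, CSMD1 alone was above 10 TPM (14.1 ± 2.77), DLG2 was at 1.88 ± 0.933 TPM, and RBFOX1 (0.637), CNTNAP2 (0.343) and PTPRD (0.0211) were under 1 TPM.

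Calls below come from edgeR's quasi-likelihood test on rounded counts with Benjamini-Hochberg adjustment over all genes tested, and a gene was called higher or lower when the adjusted p was under 0.05 and the log2 fold change was past 1 in size. Values per well are counts per 1000000 counts of the library (CPM) after TMM scaling, which sets the bulk of genes level between wells. Of the long genes 245 had enough counts for the test in all 18 comparisons with DMSO, 19 in some and 39 in none. In bulk RNA fewer cells and less RNA per cell cannot be told apart, and "higher" and "lower" are relative to the bulk of each library.

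With triptolide at the upper doses, more of the long genes were called higher than among all genes tested, and fewer were called lower. At 10000 nM, 67 of 247 tested long genes (27.1%) were called higher, against 16.2% of all 18536 genes tested, and 48 (19.4%) were called lower, against 30.2% of all genes tested. The median log2 fold change was 0.36 for long genes, -0.15 for genes under 20 kb and -0.18 for all coding autosomal genes. At 1000 nM, 54 were higher (21.9%, against 13.9% of all genes tested) and 52 lower (21.1%, against 30.4%), with a median of 0.14 against -0.17 under 20 kb. At 100 nM, 32 were higher (13%, against 11.4%) and 40 lower (16.2%, against 20.9%), with a median of 0.15 against -0.01. Of genes under 20 kb, 19.75% were called higher and 34.1% lower at 10000 nM, and 17.2% and 34.1% at 1000 nM. At 100 nM these shares were 14.1% and 19.5%, so there fewer of the long genes than of the short genes were called higher. The order over gene span was not steady. At 10000 nM the medians from the shortest to the longest class were -0.15, -0.20, -0.25, -0.25, -0.03 and 0.36, so that the class from 200 to 500 kb stood much closer to the short genes than to the long ones.

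**Figure D1:**
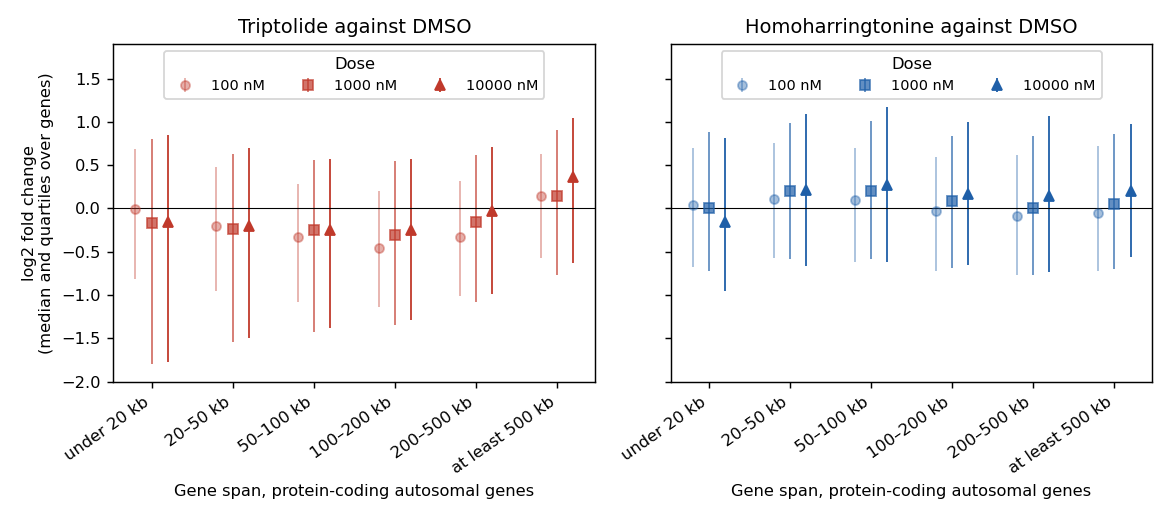
Median log2 fold change against DMSO by gene span, with quartiles over genes as bars, for the 3 doses of triptolide (left) and homoharringtonine (right). With triptolide at 10000 nM the class of at least 500 kb is at 0.36 and all shorter classes lie below 0, while with homoharringtonine the medians of the classes at 10000 nM lie between -0.16 and 0.27.

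These directions rest on the scaling. The share of counts from the 13 mRNAs encoded by mitochondrial DNA, which a different polymerase transcribes, was 0.138% to 0.367% in DMSO wells and 1.01% to 1.15% with triptolide at 10000 nM. Scaled to those mRNAs, the median of all genes moved by -2.76 on the log2 scale, and 0 long genes were higher and 233 lower. Scaled to library sizes alone, it moved by -0.53, with 24 long genes higher and 71 lower, and with RLE size factors it moved by 0.17, with 82 higher and 41 lower. No share over all genes is given for these counts. Under the mitochondrial scaling the median was -2.37 for long genes and -2.92 for all genes. The distance between long genes and genes under 20 kb does not depend on such a shift. It was 0.51 at 10000 nM, 0.31 at 1000 nM and 0.15 at 100 nM. When single replicates were left out it ranged from 0.45 to 0.53 at 10000 nM, from 0.19 (without replicate 3) to 0.43 (without replicate 2) at 1000 nM and from 0.03 (without replicate 1) to 0.16 at 100 nM.

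The distance was also seen among genes of like mRNA length and like level. In the highest part of 3 equal groups by mRNA length, the median log2 fold change with triptolide at 10000 nM was 0.36 for 140 long genes and -1.21 for 776 genes under 20 kb. In the lowest part it was 0.61 for 34 long genes and 0.38 for 2446 genes under 20 kb. By level in DMSO, it was 0.37 against -0.62 in the lowest group, 0.22 against -0.77 in the middle group and 0.97 (16 long genes) against 0.45 in the highest group. The long genes whose canonical transcript spans at least 500 kb had a median of 0.43 (192 genes), those at 100 to 500 kb 0.14 (50 genes) and those under 100 kb -4.30 (5 genes). Of those last 5, EGLN3, SEMA6D, RASGEF1B and GSE1 were called lower, and ANO5 was at 0.06.

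Library composition moved with the same measure. For each well the median log2 deviation of long genes from the DMSO mean was set against that of genes under 20 kb, and the slope of all genes' deviations on mRNA GC content gave the GC slope of the library. Over the 18 DMSO wells, which received the same solvent, the long-minus-short value ran from -0.36 to 0.47 and followed the GC slope with Pearson's r = -0.965 and a Spearman coefficient of -0.957 (r = -0.942 without the 2 wells farthest from the median slope). Over the 36 wells of Nilotinib, Pyrazolanthrone, MK-2206 and Miglitol r was -0.974 and the Spearman coefficient -0.956. These are descriptions, since both axes come from the same libraries and long genes are poor in GC. With triptolide at 10000 nM the 3 wells were at 0.39, 0.42 and 0.54, and 1 of them was above every DMSO well. Their GC slopes, 0.11 to 0.24, were within the DMSO range of -0.38 to 0.30. With the GC slope as a covariate in the fit the distance was 0.68 at 10000 nM, with 73 long genes higher and 44 lower (no share over all genes given). The slopes of the triptolide wells come from the treated libraries themselves, so that fit cannot tell a library effect from one of the compound.

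**Figure D2:**
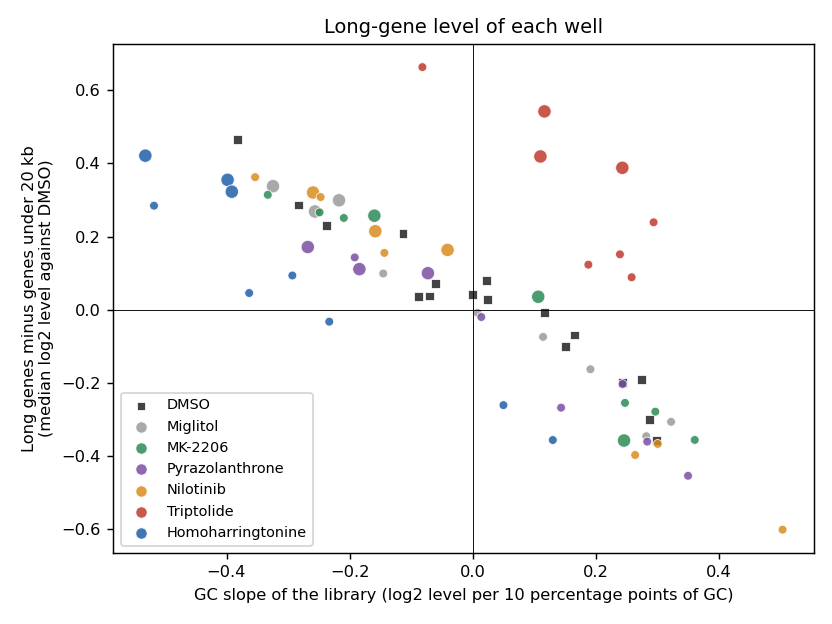
Median log2 level of long genes minus that of genes under 20 kb, against the GC slope of the library, for each well except the shallowest triptolide well and the shallowest DMSO well; large circles are 10000 nM wells and squares are DMSO wells. Wells of DMSO and of the kinase inhibitors and Miglitol form 1 falling band, triptolide wells stand above it, and homoharringtonine wells lie on or below it.

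The lists by function differed in their counts with triptolide at 10000 nM, and none was tested as a list. The lists were drawn up with earlier results of these data known. Against 27.1% higher and 19.4% lower among all long genes tested, of 32 tested adhesion molecules 15 were higher and 5 lower (median 0.98). Of 19 axon guidance molecules and receptor tyrosine kinases with their ligands 9 were higher and 2 lower (median 0.90), and of 16 heparan sulfate, glycosylation and matrix genes 8 were higher and 1 lower (median 1.08). Genes of common fragile sites had 13 higher and 3 lower of 26 (median 0.95), and of 4 receptor protein tyrosine phosphatases 2 were higher and 0 lower (median 1.08). Transcription factors and chromatin regulators had 2 higher and 9 lower of 23 (median -0.58). Cytoskeleton proteins and their regulators had 4 higher and 8 lower of 25 (median 0.06). Synaptic scaffolds had 3 higher and 4 lower of 22 (median -0.31), ion channels and neurotransmitter receptors 3 and 2 of 19 (median 0.42), kinase and cyclic nucleotide signalling 4 and 4 of 18 (median 0.16), RNA-binding proteins 0 and 1 of 5 (median 0.48), metabolism and genome maintenance 8 and 4 of 31 (median 0.48), and the genes in none of the lists 9 and 9 of 36. With library sizes alone the adhesion list had 8 higher and 8 lower with a median of 0.45, and scaled to mitochondrial mRNAs the median of each of the 12 lists was negative. The marker counts stand beside 16.2% higher and 30.2% lower among all genes tested. Mesenchymal and osteoblast markers outside the long genes had 7 of 11 higher and 0 lower. Their summed level was 18290 to 19960 CPM in the 3 wells against 6815 to 8099 CPM in DMSO. Epithelial markers had 3 higher and 1 lower of 5 tested, with sums of 13 to 14.9 CPM against 9.96 to 17.1 CPM in DMSO, and leukocyte markers 2 higher and 0 lower of 3, with sums of 31.3 to 40.4 CPM against 10.1 to 15.8 CPM and CD3E near 0. The part of these markers in the result was not tested.

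**Figure D3:**
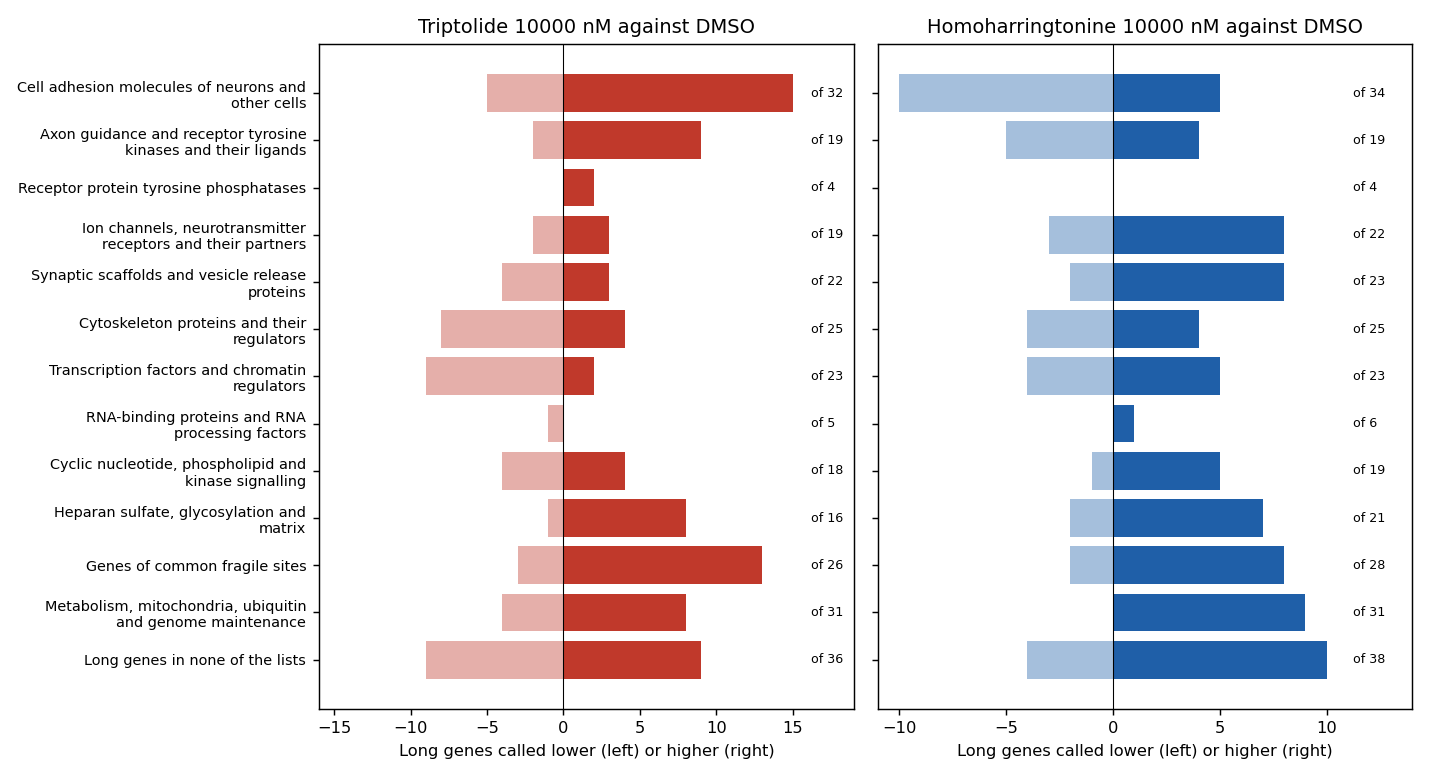
Number of long genes called higher (right of 0) or lower (left of 0) at 10000 nM in each functional list, with the number tested at the side, for triptolide and homoharringtonine against DMSO. Adhesion molecules have 15 higher and 5 lower with triptolide and 5 higher and 10 lower with homoharringtonine.

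The genes of this and the later sets of 8 were taken for the size of their change, with all treated wells on 1 side of the DMSO mean, so the lack of overlap with the 17 deep DMSO wells, seen in each of them, is a description and supports nothing. The 8 largest rises at 10000 nM included several genes best known from neurons, at low levels in DMSO wells. CNTNAP2 (ENSG00000174469, chr7:146116002-148420998), a neurexin-like protein that clusters potassium channels on axons, was at 0.348 to 1.01 CPM in DMSO (median 0.631) and at 3.79, 4.32 and 4.27 CPM with triptolide. The log2 fold change was 2.65 ± 0.18 (SE; edgeR adjusted p = 1.87e-12). OPCML (ENSG00000183715, chr11:132414977-133532501), a GPI-anchored adhesion molecule of the opioid-binding family, was at 0.544 to 1.36 CPM in DMSO (median 0.951) and at 4.74, 3.74 and 4.12 CPM (log2 fold change 2.11 ± 0.20). DPP10, an auxiliary subunit of Kv4 potassium channels, changed by 2.03 ± 0.23. ADGRL3, a latrophilin receptor that binds teneurins, changed by 1.93 ± 0.16. SYT1, the calcium sensor of synaptic vesicle release, changed by 1.83 ± 0.23, and NELL1, a secreted factor of bone formation, by 1.77 ± 0.19. The strongly expressed members of this set were KCNMA1, the pore of the BK potassium channel, at 65.9, 72.5 and 75.5 CPM against 12.2 to 22.8 CPM in DMSO (log2 fold change 1.79 ± 0.11), and PTPRM, a receptor phosphatase with homophilic adhesion, at 182, 183 and 188 CPM against 44.2 to 59.5 CPM (1.74 ± 0.07, edgeR adjusted p = 3.09e-17).

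Among the most highly expressed members, TENM2 rose from 210 to 260 CPM (median 230) in DMSO to 718, 715 and 818 CPM, SPOCK1 from 26.2 to 36.2 CPM to 93.9, 97.2 and 95.2 CPM, and CDH13 from 45.4 to 64.5 CPM to 172, 166 and 176 CPM. Their log2 fold changes were 1.67 ± 0.07, 1.61 ± 0.07 and 1.58 ± 0.07. GPC6 (1.47), NTM (1.37), PTPRG (1.35), TBC1D5, a RAB GTPase-activating protein of the retromer pathway (1.2), PRKCA (1.14), LPP (1.06), SYNE1 (1.04) and CAMTA1 (1.01) were also called higher. ADK (0.93 ± 0.22), ROBO1 (0.90 ± 0.09), PARD3 (0.25 ± 0.08), FAF1 (0.15 ± 0.13), AGAP1 (0.11 ± 0.09) and the RNA-binding RBMS3 (0.48 ± 0.14) did not reach the fold limit, and RBFOX3 was at 0.09 ± 0.19. Scaled to mitochondrial mRNAs all of the rises named in this and the preceding paragraph turned negative.

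The largest falls were deep, and EGLN3 and SEMA6D, which led them, have canonical transcripts under 100 kb. EGLN3 (ENSG00000129521, chr14:33924227-34462774), an oxygen-sensing prolyl hydroxylase that hypoxia factors induce, was at 3.78 to 6.67 CPM in DMSO (median 5.0) and at 0.198, 0.109 and 0.317 CPM with triptolide at 10000 nM. The log2 fold change was -4.65 ± 0.33 (edgeR adjusted p = 3.68e-12). SEMA6D (ENSG00000137872, chr15:47184101-47774228), a transmembrane semaphorin, was at 0.610 to 2.33 CPM in DMSO and at 0.0395, 0.0363 and 0.158 CPM (-4.30 ± 0.51, a fitted value that rests on very few counts per well). PDE4B, a cyclic AMP phosphodiesterase, was at 1.65 to 3.05 CPM in DMSO and at 0.158, 0.182 and 0.0396 CPM (-4.23 ± 0.29). AUTS2, a partner of Polycomb complexes in neurons, was at 41.5 to 64.6 CPM in DMSO and at 5.02, 5.16 and 5.38 CPM (-3.35 ± 0.16). DLC1, a tumour suppressor, was at 58.2 to 77.9 CPM and at 7.55, 7.22 and 8.23 CPM (-3.12 ± 0.10, edgeR adjusted p = 2.94e-18). FRMD4A, a FERM scaffold of polarity proteins (-2.89 ± 0.17), PCDH9, a protocadherin (-2.77 ± 0.33), and MAST4, a microtubule-associated kinase (-2.67 ± 0.16), followed. At 100 nM several were not lower. EGLN3 was at 7.56 and 8.04 CPM in the 2 deep wells of triptolide 100 nM, above all 17 deep DMSO wells, PCDH9 was at 11.4 and 9.03 CPM, and MAST4 at 38.7 and 30.3 CPM against 16 to 24.2 CPM in DMSO (0.90 ± 0.13, under the fold limit).

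**Figure D4:**
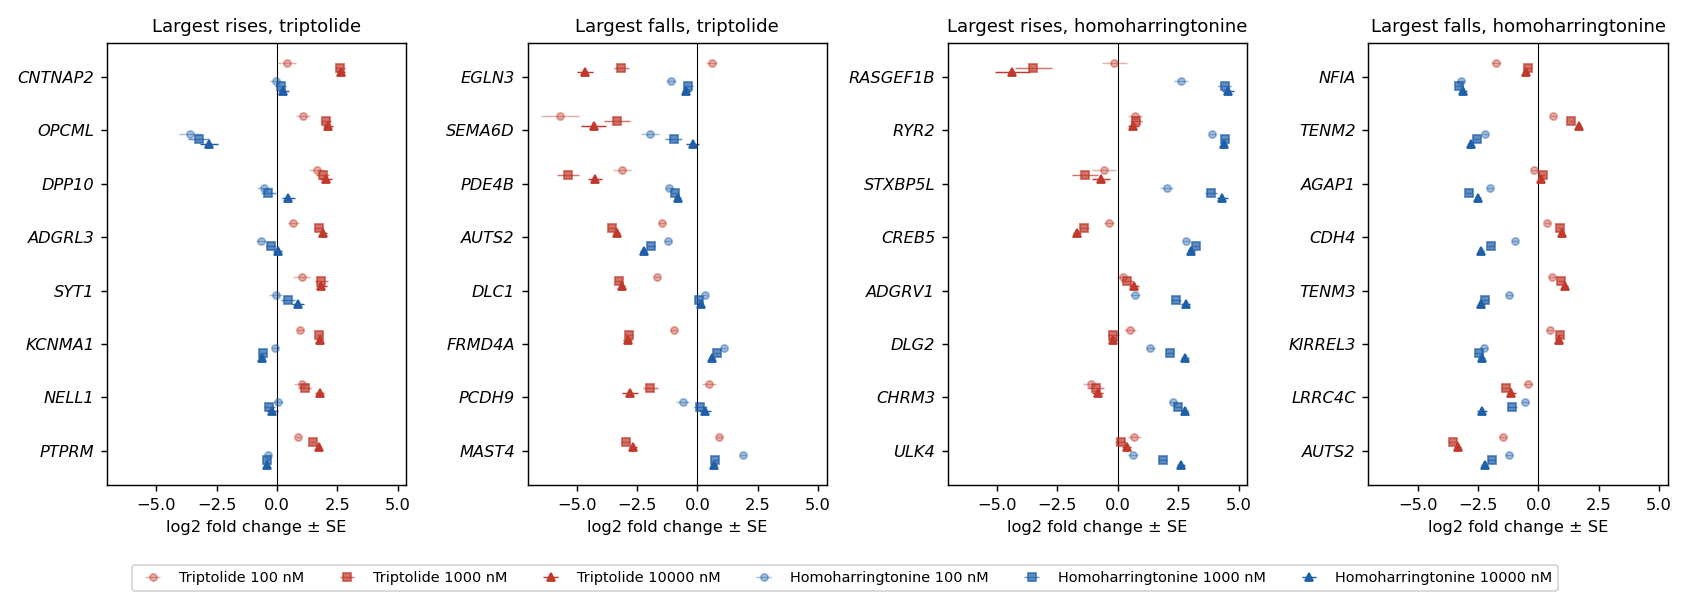
Log2 fold change against DMSO with its SE at the 3 doses of triptolide (red) and homoharringtonine (blue) for the 8 long genes with the largest rises and falls at 10000 nM of each compound. RYR2 stands at 4.40 with homoharringtonine and 0.64 with triptolide, and DLC1 at -3.12 with triptolide and 0.16 with homoharringtonine.

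With homoharringtonine the share of long genes called higher was near that of all genes, and the share called lower was smaller. At 10000 nM, 65 of 262 tested long genes (24.8%) were called higher, against 23.6% of all 19329 genes tested, and 34 (13%) were called lower, against 23.4%. The medians were 0.20 for long genes and -0.16 for genes under 20 kb, a distance of 0.36. The classes between them, from shorter to longer, were at 0.21, 0.27, 0.17 and 0.14, so only the genes under 20 kb stood apart. By level in DMSO, the median was 0.27 for 159 long genes and 0.32 for genes under 20 kb in the lowest of 3 groups. In the middle group it was -0.01 (86 long genes) against -0.11, and in the highest 0.35 (17 long genes) against -0.33. The distance was not seen in the lowest group, which held most of the long genes. By mRNA length the medians were 0.02 against -0.14, 0.29 against -0.10 and 0.20 against -0.37, from the shortest to the longest group. Among all coding autosomal genes 25.3% were called higher and 19.6% lower, and among genes under 20 kb 21.9% and 23.2%. At 1000 nM, 55 of 256 were higher (21.5%, against 21.5% of all genes tested) and 43 lower (16.8%, against 20.9%), and at 100 nM, 46 of 251 were higher (18.3%, against 15.6%) and 42 lower (16.7%, against 19.3%). The distances there were 0.05 and -0.09, and the first was 0.21 without replicate 1 and -0.06 without replicate 3. The long-minus-short values of the 3 wells at 10000 nM were 0.32, 0.35 and 0.42, all within the DMSO range, and the GC slopes of these 3 wells (-0.53, -0.40 and -0.39) were below those of all 18 DMSO wells. With the GC slope as a covariate the distance at 10000 nM was -0.002, and 41 long genes were higher and 61 lower. The slopes come from the treated libraries themselves, so this fit cannot tell a library effect from one of the compound. Scaled to mitochondrial mRNAs, which moved the median of all genes by -0.27, 47 long genes were higher and 50 lower. Among genes with a mean of at least 1 CPM 35 long genes were higher and 33 lower. No share over all genes is given for these refits.

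By function, adhesion molecules had 5 higher and 10 lower of 34 tested (median -0.23), and 2 higher and 14 lower with the GC covariate. Synaptic scaffolds and vesicle release proteins had 8 higher and 2 lower of 23 (median 0.56), ion channels and neurotransmitter receptors 8 and 3 of 22 (median 0.51), and metabolism and genome maintenance 9 and 0 of 31 (median 0.39). With the GC covariate these became 5 and 2, 4 and 6, and 4 and 4. Fragile site genes had 8 higher and 2 lower of 28, matrix genes 7 and 2 of 21, kinase signalling 5 and 1 of 19, transcription factors 5 and 4 of 23, cytoskeleton 4 and 4 of 25, axon guidance 4 and 5 of 19, RNA-binding 1 and 0 of 6 and receptor phosphatases 0 and 0 of 4, and the genes in none of the lists had 10 and 4 of 38. DESeq2 also called 0 receptor phosphatases, and the fit with the GC covariate called 1 higher. Mesenchymal markers had 0 higher and 7 lower of 11, with a summed level of 2951 to 3033 CPM against 6815 to 8099 CPM in DMSO, and their part in the fall of the adhesion genes was not tested. Epithelial markers had 2 higher and 1 lower of 5, with sums of 19.2 to 21.5 CPM against 10.0 to 17.1 CPM, and leukocyte markers 2 higher and 1 lower of 3, with sums of 24.3 to 27.5 CPM against 10.1 to 15.8 CPM. The leukocyte sum came mainly from the integrin ITGAM (log2 fold change 5.69 ± 0.15), while CD68 fell (-1.76 ± 0.14). Neuron markers had 3 of 6 higher and 0 past the limits downward, with a summed level of 193 to 204 CPM against 106 to 141 CPM. That sum was carried mainly by the vesicle protein SYP, at 9.98 to 38.5 CPM over all DMSO wells and at 114, 109 and 105 CPM with homoharringtonine (2.73 ± 0.15). The neurofilament gene NEFL, the most abundant of the list in DMSO, went from a mean of 79.7 to 43.4 CPM (-0.91 ± 0.11, under the fold limit; edgeR adjusted p = 6.64e-08), SNAP25 was at -0.31 ± 0.17, and RBFOX3, itself a long gene, was at -0.30 ± 0.19. Triptolide gave neuron markers a sum of 177 to 201 CPM with 0 of 6 called.

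Most of the largest rises with homoharringtonine were in genes with low levels in DMSO, and the canonical transcript of RASGEF1B spans under 100 kb. RASGEF1B (ENSG00000138670, chr4:81426393-82044244), a Ras exchange factor known as an early response gene, was at 0.0479 to 0.957 CPM in DMSO (median 0.505) and at 13.8, 12.5 and 15.5 CPM at 10000 nM. The log2 fold change was 4.56 ± 0.23 (edgeR adjusted p = 1.43e-14). With triptolide it was at 0, 0.0363 and 0.0396 CPM, which is 0 or about 1 count per well. RYR2 (ENSG00000198626, chr1:237042184-237833988), the calcium release channel of heart muscle, was at 0.715 to 1.15 CPM in DMSO (median 0.927) and at 18.7, 20.1 and 21.9 CPM (4.40 ± 0.14, edgeR adjusted p = 3.55e-18), and it was already at 14.8, 14.5 and 13.1 CPM with 100 nM. STXBP5L, a tomosyn that holds back vesicle fusion, was at 0.454 to 2.01 CPM and at 18.7, 16.5 and 20.5 CPM (4.33 ± 0.22). CREB5 was at 41.5 to 65.9 CPM and at 446, 437 and 461 CPM (3.05 ± 0.13), and had the highest DMSO level of these 8. ADGRV1, a very large adhesion receptor of hair cells (2.80 ± 0.18), DLG2, a scaffold of excitatory synapses (2.78 ± 0.15), CHRM3, a muscarinic acetylcholine receptor (2.78 ± 0.14), and ULK4, a pseudokinase (2.61 ± 0.17), followed. With 100 nM STXBP5L was at 2.03 ± 0.27, DLG2 at 1.35 ± 0.18, ADGRV1 at 0.71 ± 0.21 and ULK4 at 0.62 ± 0.20.

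The falls with homoharringtonine were led by NFIA (ENSG00000162599, chr1:60865259-61462788), a nuclear factor of glial development, at 9.53 to 15.8 CPM in DMSO (median 12.4) and at 1.71, 1.26 and 1.41 CPM at 10000 nM. The log2 fold change was -3.12 ± 0.16 (edgeR adjusted p = 1.61e-14). TENM2 (ENSG00000145934, chr5:166979029-168264157), a teneurin that binds latrophilins across the synapse, was at 33.2, 33.3 and 34.7 CPM against 210 to 260 CPM in DMSO (-2.80 ± 0.10, edgeR adjusted p = 8.92e-18). AGAP1 (-2.49 ± 0.11), the R-cadherin CDH4 (-2.38 ± 0.12), the teneurin TENM3 (-2.35 ± 0.15), the nephrin-like adhesion molecule KIRREL3 (-2.35 ± 0.14), the netrin-G ligand LRRC4C (-2.33 ± 0.21) and AUTS2 (-2.22 ± 0.15) completed the set. At 100 nM NFIA was at -3.22 ± 0.16 and KIRREL3 at -2.25 ± 0.15, while LRRC4C went from -0.55 ± 0.18 at 100 nM to -2.33 and CDH4 from -0.97 ± 0.13 to -2.38. The potassium channel KCNQ5 was also called lower (-1.87 ± 0.22), whereas PARD3 (0.91 ± 0.09) stayed under the fold limit, and ERC1, an active zone scaffold lowered by triptolide (-1.12 ± 0.12), was at -0.05 ± 0.11.

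**Figure D5:**
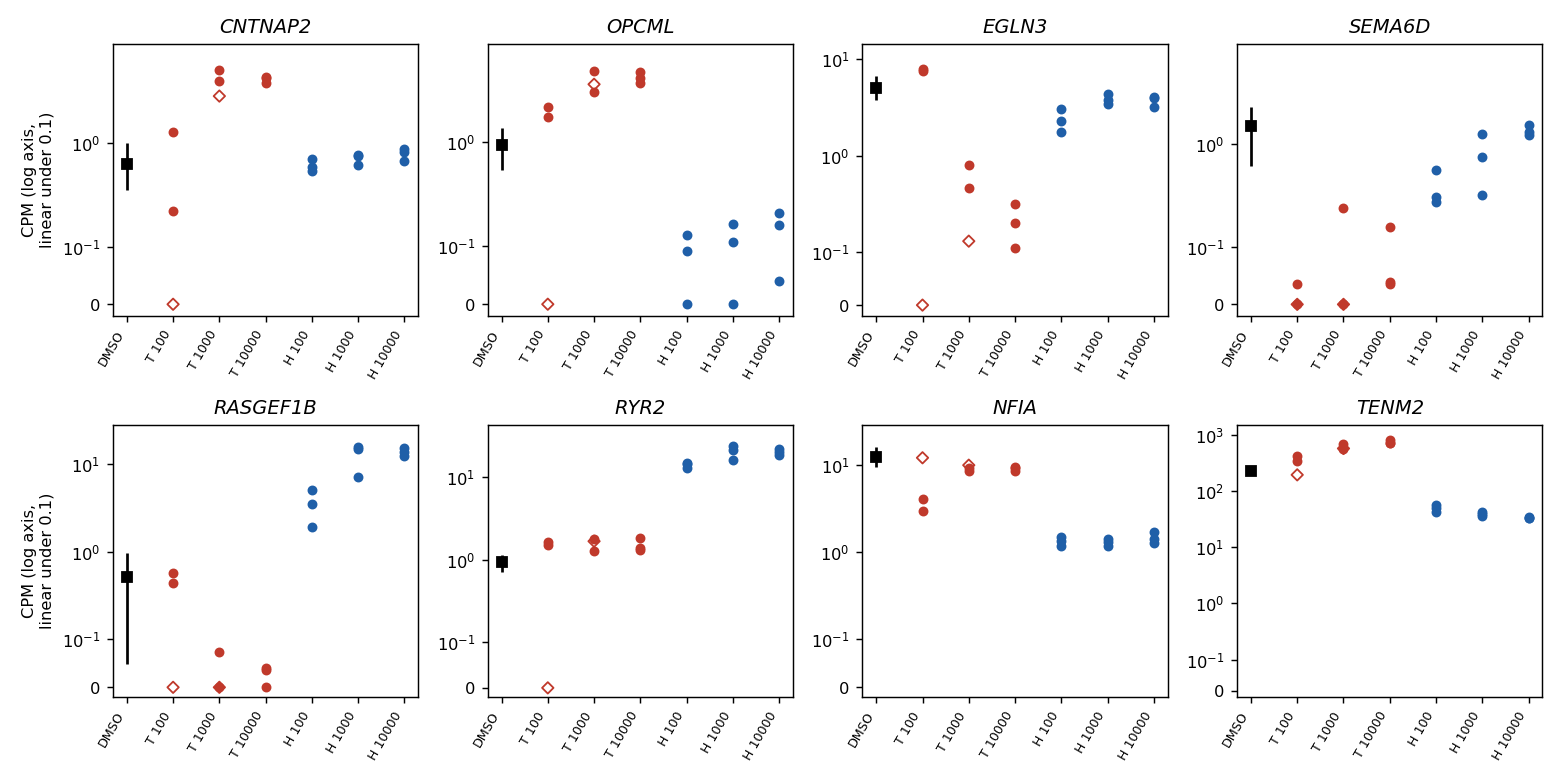
CPM in each well (log axis, linear under 0.1) of the 2 leading long genes of each direction, with T for triptolide and H for homoharringtonine and doses in nM. Squares with bars are the median and range of the 17 deep DMSO wells, and open diamonds are the shallow wells; TENM2 is above the DMSO range with triptolide at 10000 nM (715 to 818 CPM) and below it with homoharringtonine (33.2 to 34.7 CPM).

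Of the 303 long genes 251 matched an entry of the RefSeq promoter table (GRCh38.p14) by symbol. The 120 bases before the RefSeq start are shown for the 2 genes that led each direction with each compound, to set the starts of oppositely changed genes side by side. Capitals mark matches, on either strand, to the TATA box letters TATAAA, the CCAAT box letters CCAAT, the GC box letters GGGCGG, the cyclic AMP response element TGACGTCA or the AP-1 element TGANTCA, and in RASGEF1B and in RYR2 2 of the GGGCGG matches overlap.
CNTNAP2 promoter, GRCh38 chr7:146116681-146116800, plus strand: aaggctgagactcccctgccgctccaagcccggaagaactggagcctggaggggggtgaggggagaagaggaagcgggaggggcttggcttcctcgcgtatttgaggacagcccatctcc
OPCML promoter, GRCh38 chr11:133532502-133532621, minus strand: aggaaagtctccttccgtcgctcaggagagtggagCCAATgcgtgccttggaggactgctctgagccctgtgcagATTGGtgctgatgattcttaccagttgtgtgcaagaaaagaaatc
EGLN3 promoter, GRCh38 chr14:33951075-33951194, minus strand: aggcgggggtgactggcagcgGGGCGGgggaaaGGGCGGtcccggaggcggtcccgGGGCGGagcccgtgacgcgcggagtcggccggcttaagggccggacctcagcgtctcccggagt
SEMA6D promoter, GRCh38 chr15:47183969-47184088, plus strand: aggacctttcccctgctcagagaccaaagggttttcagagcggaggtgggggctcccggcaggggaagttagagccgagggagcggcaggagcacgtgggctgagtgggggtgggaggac
RASGEF1B promoter, GRCh38 chr4:81471908-81472027, minus strand: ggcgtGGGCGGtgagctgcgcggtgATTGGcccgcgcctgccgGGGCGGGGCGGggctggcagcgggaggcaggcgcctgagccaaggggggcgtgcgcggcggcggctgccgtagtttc
RYR2 promoter, GRCh38 chr1:237042064-237042183, plus strand: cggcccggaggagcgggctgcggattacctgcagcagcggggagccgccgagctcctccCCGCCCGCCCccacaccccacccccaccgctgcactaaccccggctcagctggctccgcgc
NFIA promoter, GRCh38 chr1:61077107-61077226, plus strand: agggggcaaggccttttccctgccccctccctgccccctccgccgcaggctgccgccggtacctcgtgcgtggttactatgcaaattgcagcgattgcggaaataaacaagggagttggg
TENM2 promoter, GRCh38 chr5:167073122-167073241, plus strand: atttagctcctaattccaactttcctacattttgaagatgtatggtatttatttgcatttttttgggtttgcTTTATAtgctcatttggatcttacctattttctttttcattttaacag
The windows of EGLN3, RASGEF1B and RYR2 had 77.5%, 80.0% and 77.5% GC and hold 3, 3 and 2 copies of GGGCGG, while that of TENM2 had 28.3% GC and holds 1 TATAAA on the other strand. For OPCML and RYR2 the RefSeq start was also the first base of the GENCODE record. For EGLN3 and RASGEF1B it lay 511700 and 572337 bases inside the record, so the transcripts that start there are short. For NFIA it lay 211968 bases inside and for TENM2 94213 bases inside. Which start was used in these cells was not tested, so the TENM2 window may not be its promoter here. Over the 250 bases before the start, GGGCGG was found in 49.4% of the matched long genes, in 51.1% of 5810 genes under 20 kb and in 42.3% of all 27305 promoters in the table. TATAAA was found in 7.97% of long genes, 13.2% of genes under 20 kb and 11.1% of all. CCAAT was found in 29.5%, 36.6% and 33.0%, TGACGTCA in 1.59%, 2.25% and 1.77%, and TGANTCA in 2.79%, 6.13% and 6.60%. Among long genes called with triptolide at 10000 nM, TATAAA was in 6.78% of the 59 matched higher genes and 9.09% of the 44 matched lower genes, and with homoharringtonine in 9.62% of 52 and 7.69% of 26. A match is a run of letters and not a site, and none of these shares was tested.

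The compounds were compared directly at equal doses in a fit with DMSO wells present. At 10000 nM, triptolide gave the higher level in 76 of 262 long genes (29.0%, against 28.4% of all 19438 genes tested) and homoharringtonine in 81 (30.9%, against 35.9%). At 1000 nM the numbers were 72 (27.9%, against 24.7%) and 71 (27.5%, against 34.5%) of 258, and at 100 nM 66 (26.3%, against 20.7%) and 55 (21.9%, against 25.1%) of 251. By function at 10000 nM, adhesion molecules were higher with triptolide in 21 and higher with homoharringtonine in 5 of 34 (median difference 1.44), and axon guidance molecules in 11 and 3 of 19. Synaptic scaffolds were higher with triptolide in 1 and with homoharringtonine in 12 of 23 (median difference -1.06), transcription factors in 3 and 10 of 23, and fragile site genes in 14 and 7 of 28. Under scaling to mitochondrial mRNAs the counts of long genes were 2 for triptolide and 213 for homoharringtonine, with no share over all genes given.

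Under TMM scaling several genes were called in opposite directions with the 2 compounds. Scaled to mitochondrial mRNAs, the triptolide values of those called higher turned negative. They were TENM2 (-1.12), SPOCK1 (-1.16), TENM3 (-1.63), OPCML (-0.60), SORCS2 (-1.67) and SEMA3A (-1.34). TENM2 was higher by 4.47 ± 0.11 on the log2 scale with triptolide than with homoharringtonine at 10000 nM (edgeR adjusted p = 6.83e-22), and SPOCK1 by 3.11 ± 0.11, with 10.6, 10.9 and 11.5 CPM under homoharringtonine. TENM3 differed by 3.48 ± 0.18, OPCML by 4.93 ± 0.41, SORCS2, a sortilin-family receptor of proneurotrophins, by 2.48 ± 0.22, and SEMA3A, a secreted repellent of axons, by 3.11 ± 0.38. OPCML was at 0.0402, 0.210 and 0.161 CPM with homoharringtonine and above 3.7 CPM in all 3 triptolide wells. The reverse pattern was seen in CREB5, at 18.1, 15.2 and 17.7 CPM with triptolide and 437 to 461 CPM with homoharringtonine (-4.73 ± 0.22), and in GPHN, at 13.6, 13.6 and 11.5 CPM and at 155, 159 and 161 CPM (-3.63 ± 0.16), with 60.9 to 91.7 CPM in DMSO. CALN1, a calneuron that binds calcium (-2.99 ± 0.10), KIAA1217, a cytoplasmic skeletal development protein (-3.15 ± 0.14), PRKD1, protein kinase D1 (-2.62 ± 0.15), and CSMD1, a complement control protein (-2.13 ± 0.13), were also higher with homoharringtonine. For CSMD1 the wells were at 15.6, 15.8 and 16.3 CPM with triptolide, 24.4 to 34.8 CPM in DMSO and 69.6, 68.5 and 69.7 CPM with homoharringtonine. AUTS2 fell with each compound, and its difference was -1.12 ± 0.16.

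Across the 3 doses of triptolide, 11 of 232 tested long genes rose with dose (4.74%, against 6.93% of all genes tested) and 19 fell (8.19%, against 17.8%) at an adjusted p under 0.05. EGLN3 fell by 2.71 on the log2 scale per 10-fold dose, MAST4 by 1.79 and PCDH9 by 1.63, while TENM2 rose by 0.47 ± 0.10, PTPRM by 0.37 ± 0.09 and SYNE1 by 0.69 ± 0.18 (edgeR adjusted p = 0.0156 for SYNE1). With single replicates left out the rising genes numbered 1 to 4 and the falling genes 5 to 16, with 1 rising and 5 falling without replicate 1 and 3 and 5 without replicate 3, while 13 and 22 were called without the shallow wells. Homoharringtonine had 69 of 259 rising (26.6%, against 21.1%) and 44 falling (17%, against 22.9%). These became 30 and 24 without replicate 2 and 37 and 31 without replicate 3, and 105 rose with library sizes alone and 38 when scaled to mitochondrial mRNAs. NAV2, a neuron navigator that binds microtubules, fell by 1.41 per 10-fold dose, from 80.7, 83.0 and 115 CPM at 100 nM, above all 17 deep DMSO wells, to 12.8, 13.6 and 14.7 CPM at 10000 nM, below all of them. STXBP5L rose by 1.13 ± 0.22.

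Genes for factors known to act on long genes were also measured. Of 47 genes for elongation, topoisomerases, intronic poly(A) site protection and related steps, triptolide at 10000 nM lowered 18 (38.3%, against 30.2% of all genes tested) and raised 2 (4.26%, against 16.2%), with a median of -0.57. Homoharringtonine raised 17 (36.2%, against 23.6%) and lowered 1 (2.13%, against 23.4%), with a median of 0.64. CDK12, a kinase that guards intronic poly(A) sites, was at 117 to 163 CPM over all DMSO wells and at 21.5, 20.6 and 20.6 CPM with triptolide (-2.75 ± 0.10, edgeR adjusted p = 2.79e-17). SCAF4, a termination factor bound to the polymerase tail, changed by -3.49 ± 0.12 with triptolide and by 2.09 ± 0.08 with homoharringtonine. CDK13, a relative of CDK12 (-3.44 ± 0.17), the elongation factor ELL (-3.38 ± 0.18), CDK9, the kinase of pause release (-2.12 ± 0.10), and RTF1 of the PAF1 complex (-2.12 ± 0.10) fell with triptolide. SCAF8 (2.25 ± 0.15), the paraspeckle protein SFPQ (1.54 ± 0.10), CDC73 (1.77 ± 0.13) and CTR9 (1.76 ± 0.13) of the PAF1 complex and ELL itself (1.45 ± 0.10) rose with homoharringtonine. Whether these changes bear on the long genes was not tested.

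With the other compounds few long genes were called. Nilotinib at 10000 nM raised 11 of 248 (4.44%, against 2.41% of all 18616 genes tested) and lowered 0 (against 0.709%), with 83 at an unadjusted p under 0.05. Counts at an unadjusted p were not set against all genes, here or below. Over its 3 doses edgeR called 18 long genes, DESeq2 called 18, and edgeR called 40 without replicate 1 and 32 when scaled to mitochondrial mRNAs. HDAC9, a class IIa histone deacetylase, was at 14.4 to 24.8 CPM in the 17 deep DMSO wells and at 59.5, 54.9 and 54.0 CPM (log2 fold change 1.54 ± 0.12, edgeR adjusted p = 1.79e-09). MAST4 was at 16 to 24.2 CPM and at 55.6, 47.5 and 49.1 CPM (1.44 ± 0.11, edgeR adjusted p = 5.09e-10). NAV2 was at 30.2 to 44.7 CPM and at 113, 87.8 and 87.4 CPM (1.40 ± 0.13). These genes were named for their small adjusted p, so the lack of overlap of their treated wells with the deep DMSO wells is a description and supports nothing. AFF3, a subunit of elongation complexes (1.44 ± 0.15), SLIT3, a secreted guidance cue (1.36 ± 0.14), and MCTP1, a calcium-binding membrane protein (1.23 ± 0.15), were raised too. Scaled to mitochondrial mRNAs these 6 fell under the fold limit, with values from 0.57 to 0.86. HDAC9 (2.37 ± 0.12) was also higher with homoharringtonine, and MAST4 was among the largest falls with triptolide.

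At 100 nM Nilotinib lowered 5 of 248 long genes (2.02%, against 0.778% of all genes tested) and raised 0 (against 0.702%), with 86 at an unadjusted p under 0.05. Among them were the transcription factor SOX6 (-1.04 ± 0.19), the zinc finger protein TSHZ2 (-1.10 ± 0.24), DLG2 (-1.03 ± 0.24) and SEMA6D (-1.55 ± 0.37). Without replicate 2 all 5 lost the call. That replicate and replicate 3 had long-minus-short values of -0.60 and -0.40, below all DMSO wells, and GC slopes of 0.50, above all DMSO wells, and 0.26. At 1000 nM ALK, a receptor tyrosine kinase (0.379, 0.603 and 0.273 CPM against a DMSO median of 0.191 CPM), was higher and CADM2, a synaptic adhesion molecule, lower, 2 genes named because they were the only calls (0.405% in each direction, against 0.745% higher and 0.383% lower).

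Pyrazolanthrone at 100 nM lowered 4 of 246 long genes (1.63%, against 0.581% of all genes tested), namely TSHZ2 (-1.03 ± 0.22), SEMA6D (-1.17 ± 0.33), NEBL, a nebulin-family actin protein (-1.02 ± 0.27), and RASGEF1B. The first 3 of these lost the call without replicate 2 and without replicate 3, and over all doses 1 and 3 long genes were then called. Replicate 3 at 100 nM had a long-minus-short value of -0.45, below all DMSO wells, and a GC slope of 0.35, above all of them. At 1000 nM it moved 0 of 248 by edgeR (20 at an unadjusted p under 0.05), and 0 of all 18469 genes tested. At 10000 nM it moved 1 of 245 (0.408%, against 0.589% higher), ANKFN1, an ankyrin and fibronectin domain protein. ANKFN1 was at 4.43, 4.23 and 5.64 CPM against 0.383 to 1.52 CPM in DMSO (2.10 ± 0.19, edgeR adjusted p = 1.23e-07). The same gene was the single call of MK-2206, at 0.471, 0.566 and 0.510 CPM with 10000 nM (-1.07 ± 0.27, edgeR adjusted p = 0.024), within the DMSO range (0.407% of 246, against 0.151% lower), and 0 were called without replicate 1 and without replicate 3. With 100 and 1000 nM of MK-2206, 0 long genes were called by edgeR (against 0.0054% higher at 100 nM, and 0.194% higher and 0.0918% lower at 1000 nM, of all genes tested), with 26 and 47 at an unadjusted p under 0.05, and DESeq2 called 2 over the 3 doses. With Miglitol edgeR called 0 at each dose, as among all genes tested, with 15, 30 and 32 at an unadjusted p under 0.05, and DESeq2 also called 0. The long-minus-short distance with Miglitol at 10000 nM was 0.31 all the same, and its wells were at 0.27, 0.30 and 0.34 with GC slopes of -0.32 to -0.22, inside the DMSO range for each.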

How the data were processed

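RNA-seq of 72 U2OS wells was analysed from 1 deposited table per well. Per the labels the authors made these expected counts and TPM values with RSEM on GRCh38; their processing notes also name HTSeq and DESeq2. Tool versions and the annotation behind the files are not given in the sources used here. Genes were matched by Ensembl identifier to GENCODE release 44, and GC content and mRNA length come from its transcripts and the deposited lengths. The members and lists were chosen with earlier results of these data known.

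Deposited expected counts were rounded, genes were filtered with filterByExpr (minimum 10), and edgeR 4.0.16 in R 4.3.3 fitted quasi-likelihood models with TMM factors, each dose against the 18 DMSO wells, and triptolide against homoharringtonine with DMSO present. Dose trends used log10 dose without DMSO. Calls needed a Benjamini-Hochberg adjusted p under 0.05 over all genes tested and a log2 fold change past 1 (none for trends). Deposited TPM values were used only for levels between genes. CPM of single wells used TMM factors over 72 wells, and long-minus-short values used log2(CPM + 0.1) over genes with a DMSO mean of at least 1 CPM. Named genes were the 12 highest in TPM, the 5 longest, up to 8 largest rises and falls at 10000 nM of triptolide and homoharringtonine with a mean of at least 1 CPM and no treated well across the DMSO mean from the others, up to 6 per dose of other compounds and per opposite direction, the 2 highest of each list and up to 6 factors; ALK, CADM2 and the other single calls were named after their values were seen.

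On simulated counts for triptolide 10000 nM over 14316 genes, edgeR recovered 194 of 200 changed genes with 1 false call. The replicate block recovered 178 with 10 false calls, the homoharringtonine dose trend 198 with 11, and the other settings 192 to 196 with 1 to 4. In the wells themselves, triptolide at 10000 nM had 3005 genes called higher and 5602 lower of 18536. The choice of scaling under so many changes was not tested. Alternatives were DESeq2 1.42.0, other scalings and filters, a GC slope covariate, a replicate block and omission of wells. No 2 wells were duplicates, since the lowest chi-square per degree of freedom over 207 pairs was 1.73. Some items are not reported here.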

Additional observations from a re-analysis of the deposited data

How the results depend on the processing

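The counts moved most with the scaling. No share over all genes is given for the counts of the refits, here or in the sections above. Scaled to mitochondrial mRNAs, triptolide at 100, 1000 and 10000 nM raised 0, 0 and 0 long genes and lowered 181, 221 and 233, the direct comparison gave 4, 2 and 2 higher with triptolide and 153, 199 and 213 higher with homoharringtonine, 0 rose and 92 fell with the dose of triptolide, 38 rose with that of homoharringtonine, and Nilotinib and Pyrazolanthrone had 32 and 3 calls over their doses. With library sizes alone triptolide raised 11, 25 and 24, 48 were higher with triptolide than with homoharringtonine at 10000 nM, and 105 rose with the dose of homoharringtonine. Among genes of at least 1 CPM homoharringtonine raised 32 at 1000 nM and 35 at 10000 nM, 53 were higher with it than with triptolide at 10000 nM, MK-2206 had 2 calls and the distance at 10000 nM was 0.30. Without the filter 22 rose with the dose of triptolide, MK-2206 had 0 calls and the homoharringtonine distance was 0.11. With DESeq2 20 rose with the dose of triptolide and MK-2206 had 2 calls. Without the 3 shallow wells, Pyrazolanthrone had 8 calls and MK-2206 had 2.

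With the GC covariate homoharringtonine at 10000 nM raised 41 and lowered 61, MK-2206 had 2 calls, and the distance was 0.68 for triptolide and -0.0024 for homoharringtonine at 10000 nM and -0.30 for homoharringtonine at 100 nM. Wells of 1 number were not taken as pairs, since the correlations of their deviations had both signs. Between doses of a compound the mean was -0.245 for MK-2206, -0.107 for triptolide, -0.0789 for homoharringtonine, 0.14 for Miglitol, 0.184 for Pyrazolanthrone and 0.238 for Nilotinib, and the lowest pair was negative in each. Between wells of different number the means were, in the same order, 0.0999, 0.0487, 0.0433, -0.0731, -0.0954 and -0.128. For Miglitol, Pyrazolanthrone and Nilotinib wells of 1 number were thus more alike on average, and the main fits do not model this. The fit with a replicate block gave 21 higher with triptolide at 100 nM, 4 rising and 7 falling with its dose, 0 calls for MK-2206 and 10 for Miglitol, and distances of 0.73 for triptolide at 10000 nM and 0.11 and 0.44 for homoharringtonine at 100 and 10000 nM. With RLE factors triptolide at 10000 nM raised 82 and lowered 41, and no count moved by more than 1.5 times.

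With single replicates left out, triptolide raised 23 to 36, 46 to 59 and 62 to 68 long genes and lowered 25 to 40, 48 to 64 and 46 to 49 at 100, 1000 and 10000 nM, and homoharringtonine raised 41 to 50, 47 to 59 and 63 to 66 and lowered 38 to 39, 38 to 49 and 33 to 37. The direct comparison gave 55 to 64, 68 to 73 and 73 to 77 higher with triptolide and 51 to 60, 68 to 79 and 75 to 78 higher with homoharringtonine. With dose, 1 to 4 rose and 5 to 16 fell for triptolide, and 30 to 64 rose and 24 to 42 fell for homoharringtonine. Calls numbered 14 to 40 for Nilotinib (40 without replicate 1), 1 to 6 for Pyrazolanthrone (1 without replicate 2), 0 to 2 for MK-2206 and 0 to 0 for Miglitol. The distances were 0.03 to 0.16, 0.19 to 0.43 and 0.45 to 0.53 for triptolide, and -0.15 to -0.02, -0.06 to 0.21 and 0.31 to 0.40 for homoharringtonine.

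Scaled to mitochondrial mRNAs, these triptolide rises at 10000 nM became negative on the log2 scale: NTM -1.41, TENM2 -1.12, CAMTA1 -1.77, SPOCK1 -1.16, SYNE1 -1.69, CDH13 -1.19, CNTNAP2 -0.079, OPCML -0.60, DPP10 -0.70, ADGRL3 -0.82, SYT1 -0.89, KCNMA1 -1.01, NELL1 -0.97, PTPRM -1.02, TENM3 -1.63, PTPRG -1.40, PRKCA -1.62, GPC6 -1.30, LPP -1.66, TBC1D5 -1.56, SORCS2 -1.67 and SEMA3A -1.34. The cause of these changes was not tested. Genes at the lowest levels are limited by depth, since 1 count is about 0.03 CPM in a triptolide well at 10000 nM.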
